A study of Mus musculus with 12 samples.

Results

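The retinal pigment epithelium (RPE) was profiled for 10 genes of its cell junctions and polarity: the claudins Cldn2, Cldn10 and Cldn19, occludin (Ocln), the zonula occludens scaffold Tjp1, the cadherins Cdh1, Cdh2 and Cdh3, and the polarity genes Pard6b and Crb2. They were picked out by gene symbol, with earlier results of these data known, and all 10 were found among the 27179 genes of the count tables and among the 14219 genes that passed the filter on low counts (at least 20 deposited normalized counts on average). The RNA came from wild-type male C57BL/6J mice with no engineered allele, 3 aged 5 months and 3 aged 22 months, and each of the 2 eyes of a mouse gave 1 library, 12 in all. Mice 1 and 2 of each age belonged to batch 1 and mouse 3 of each age to batch 2. The replicate was the mouse (n = 3 per age), with the raw counts of its eyes summed, and levels are given as CPM, counts scaled to a common library total, on the TMM scale, which adjusts these totals for differences in composition.

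The RPE is a single sheet of pigmented cells between the photoreceptors and the choroidal blood supply, and its tight junctions form the outer blood-retinal barrier. In a tight junction, claudins set which ions pass between cells, occludin is a further membrane protein, and ZO-1, encoded by Tjp1, ties both to the actin cytoskeleton. Below the tight junction, cadherins hold neighbouring cells together and bind catenins at their cytoplasmic tails, while the Par and Crumbs complexes mark the apical side of the cell and help to place the junctions. In cell culture, loss of E-cadherin with gain of N-cadherin is widely used as a sign of epithelial-mesenchymal transition.

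The libraries held between 9171131 and 13217909 raw counts. All 38 genes of an RPE identity list were counted in every library, and Rpe65, the isomerase of the visual cycle, ranged over 2668 to 5374 CPM in the 5-month libraries and over 809 to 5005 CPM in the 22-month ones. The 44 rod photoreceptor genes were counted in every library as well, and their summed level ranged from 3458 to 11569 CPM at 5 months and from 4385 to 43530 CPM at 22 months. In the age comparison 36 of the 44 rod genes were called higher and 8 of the 38 RPE identity genes lower, with median log2 fold changes of 1.52 and -0.67. The summed RPE identity level ranged from 50573 to 91138 CPM at 5 months and from 20080 to 82227 CPM at 22 months. Of the other marker lists, the medians were 1.10 for bipolar cells (8 of 17 higher), 1.72 for amacrine, horizontal and ganglion cells (7 of 20), 0.87 for cones (4 of 12), 1.35 for cornea and conjunctiva (4 of 16) and 0.70 for macrophages and microglia (2 of 16). Summed per library, the bipolar list had a median of 908 CPM at 5 months and 903 CPM at 22 months. Cornea and conjunctiva had 473 and 463 CPM. The sums were 861 and 1368 CPM for amacrine, horizontal and ganglion cells, 171 and 338 for cones and 2317 and 5093 for macrophages. Median log2 fold changes were 0.20 for iris and ciliary epithelium, 0.14 for Mueller glia, 0.10 for fibroblasts, -0.12 for endothelium and -0.83 for myelin. As these are bulk samples, fewer RPE cells and less of an RNA per RPE cell cannot be told apart.

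Of the 10 genes, Cdh1 and Pard6b fell and Cdh2 rose at 22 months, and the other 7 did not pass the test (edgeR's quasi-likelihood test with batch as a covariate, Benjamini-Hochberg adjusted p under 0.05 over all genes tested and a log2 fold change beyond 0.25). Among all 14219 genes, 2.26% were called lower and 5.41% higher. By unadjusted p alone, under 0.05, the genes were 4 lower and 1 higher, against 2083 lower and 2340 higher of all 14219 genes. The log2 fold change lay below 0 in 8 of the genes, Crb2 (-0.003) and Tjp1 (-0.09) only slightly, against 7350 of all 14219 genes. The median of the 10 was -0.42, against -0.01 over all genes tested and -0.67 over the RPE identity genes. The 3 mice of one age lay wholly below those of the other in 4 genes (Cldn10, Cdh1, Cdh3 and Pard6b, lower at 22 months, against 6.6% of all genes) and wholly above in none (against 6.19%). For Cldn10 the ages were all but tied, with mouse 3 at 4.999 CPM at 5 months and 4.995 CPM at 22 months. DESeq2 on the same mouse sums called 4 genes lower (Cldn2, Cdh1, Cdh3 and Pard6b) and 1 higher (Cdh2), where it called 6.07% and 10.6% of all genes.

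**Figure D1:**
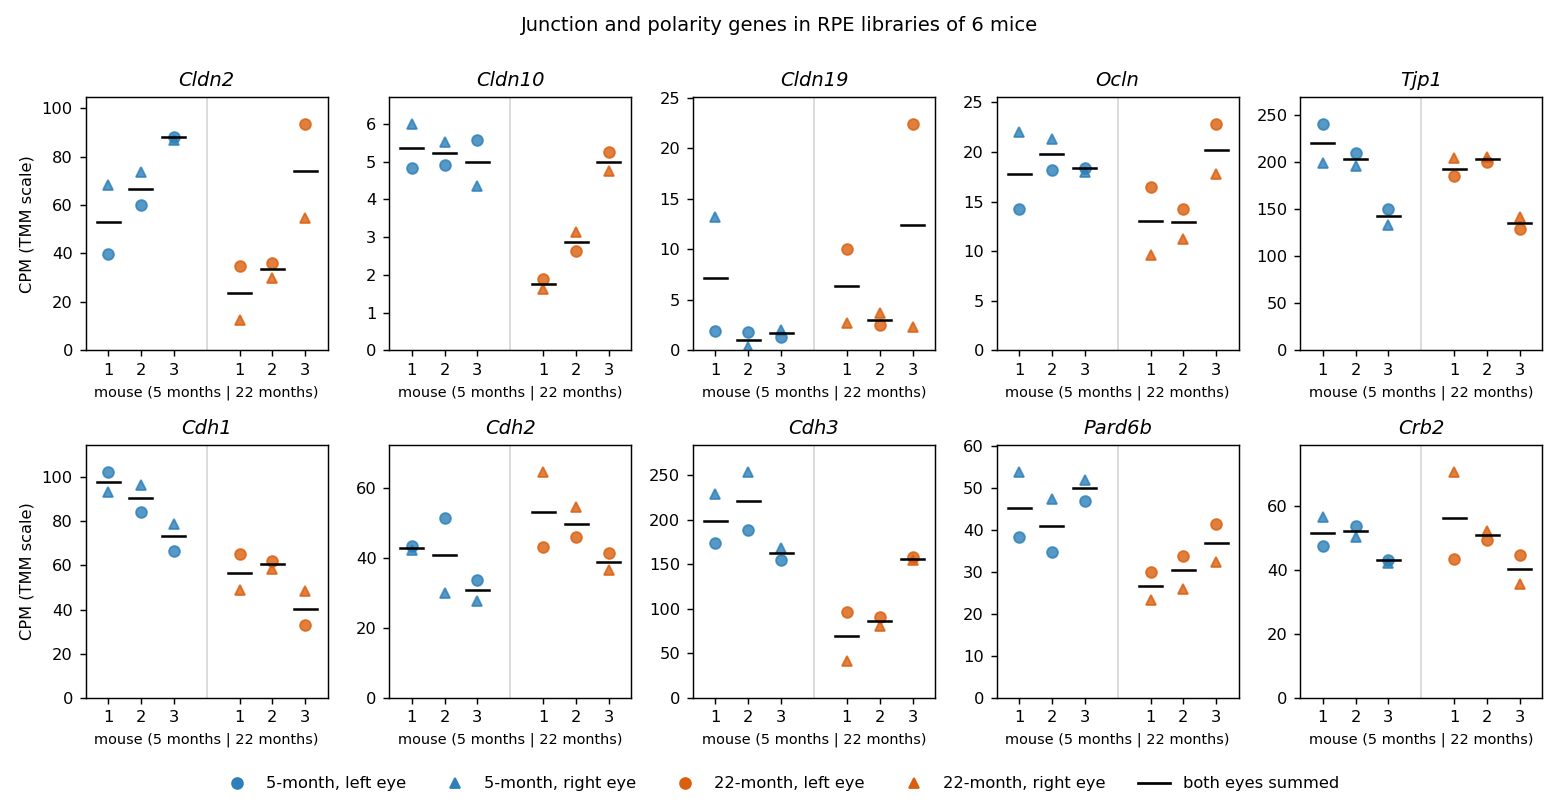
Level of each of the 10 genes in CPM (linear axis from 0) in the left eye (circles) and right eye (triangles) of every mouse, with the level of the summed eyes as a black bar. Every Cdh1 library of the 22-month mice, at most 65.2 CPM, lies below every 5-month library, at least 66.8 CPM, while 1 eye of some mice carries most of the Cldn19 counts.

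E-cadherin, encoded by Cdh1, is the classical adhesion molecule of epithelial sheets. Its level in the 5-month mice was 97.9, 90.6 and 73.4 CPM (mice 1, 2 and 3), and in the 22-month mice 56.6, 60.5 and 40.4 CPM. The ages did not overlap in mice or in single libraries, which ranged from 66.8 to 102.5 CPM (median 88.7) at 5 months and from 33.1 to 65.2 CPM (median 53.4) at 22 months. The mean fell from 87.3 ± 12.6 to 52.5 ± 10.6 CPM (SD, n = 3), a log2 fold change of -0.74 ± 0.07 (SE, edgeR adjusted p = 0.0195). The difference was present within both batches, at -0.69 in the 4 mice of batch 1 and -0.86 between the 2 mice of batch 2. The edgeR call was lost without 22-month mouse 1 (log2 fold change -0.74, adjusted p = 0.105) or without 22-month mouse 2 (-0.79, adjusted p = 0.0855), and in left eyes alone (-0.70, adjusted p = 0.0611) or right eyes alone (-0.80, adjusted p = 0.0537).

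N-cadherin, encoded by Cdh2, is the cadherin of neural tissue and mesenchyme and is also a junctional cadherin of RPE cells. The gene is on chromosome 18 (GRCm38, 16588877 to 16809246). The 5-month mice had 42.7, 40.9 and 30.9 CPM and the 22-month mice 53.1, 49.8 and 38.8 CPM. Mouse 3 was the lowest of its age in both groups, so that the ages overlapped over all mice, whereas within each batch every 22-month mouse lay above every 5-month mouse. The level rose from 38.2 ± 6.38 to 47.2 ± 7.46 CPM (SD, n = 3), a log2 fold change of 0.31 ± 0.06 (SE, edgeR adjusted p = 0.0433), with 0.30 in batch 1 and 0.33 in batch 2. With the mouse number as a replicate block the log2 fold change was 0.31 and the call was lost (adjusted p = 0.0605). Left eyes alone gave 0.04 (adjusted p = 0.896) and right eyes alone 0.61 (adjusted p = 0.0944). Cdh2 was higher in the eye with the higher rod score (the mean log2 CPM of the 44 rod genes) in 6 of 6 mice. In a fit of single eyes that took the rod score as a covariate the log2 fold change was -0.04 (adjusted p = 0.913), and it was 0.06 after the 3 libraries with the most extreme rod scores had been left out (adjusted p = 0.765). The call was also lost when any single mouse of batch 1 was left out, with log2 fold changes between 0.28 and 0.34 over the 6 omissions and adjusted p of 0.117 and 0.161 when the mouse omitted was 5-month mouse 1 or 2, and of 0.162 and 0.126 when it was 22-month mouse 1 or 2.

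P-cadherin, encoded by Cdh3, is a prominent cadherin of the RPE, and inherited loss of CDH3 in people causes macular dystrophy with sparse hair. Per kilobase of exon it had the highest level of the 3 cadherins at both ages, 44.3 CPM per kilobase at 5 months and 23.7 at 22 months, against 19.1 and 11.5 for Cdh1 and 4.73 and 5.86 for Cdh2. Its level was 198.4, 221.0 and 163.0 CPM in the 5-month mice and 68.9, 86.5 and 155.7 CPM in the 22-month mice. The mice of the ages did not overlap, but 22-month mouse 3 came close to the 5-month mice while mice 1 and 2 lay far below them. The log2 fold change was -0.98 ± 0.29 (SE, edgeR adjusted p = 0.0933). In batch 1 alone it was -1.43 (adjusted p = 0.0109, called), which is the value without either mouse 3 as well. Between the 2 mice of batch 2 it was -0.07. The batch 1 fit called more genes of every kind, 1251 lower and 1729 higher over all genes, against 321 and 769 with all mice. The batch 1 calls given below for Cldn2, Cldn10 and Ocln come from the same fit. The rod score of 22-month mouse 3 was 6.35 and 5.10 in its left and right eye, below all other 22-month libraries (7.11 to 8.73), and its RPE identity score was 9.47 and 9.36, above all of them (7.77 to 8.76). For 5-month mouse 3, the lowest of its age in Cdh3, the rod score was 5.69 and 4.14 and the RPE identity score 9.64 and 9.67. The part of these scores in the Cdh3 values was not tested.

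**Figure D2:**
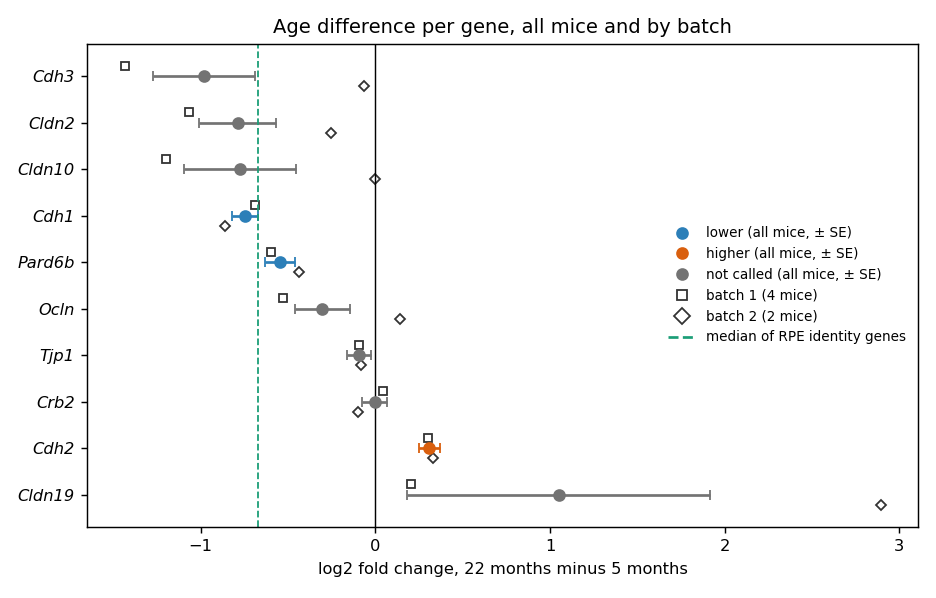
Log2 fold change at 22 months relative to 5 months for each gene over all mice (filled circles with standard error, coloured by call), within batch 1 (squares) and between the 2 mice of batch 2 (diamonds), with the median of the RPE identity genes (-0.67) as a dashed line. Cdh1, Pard6b and Cdh2 have like values in both batches, whereas Cdh3 (-1.43 and -0.07), Cldn2 (-1.07 and -0.25), Cldn10 (-1.20 and -0.00), Ocln (-0.53 and 0.14) and Cldn19 (0.20 and 2.89) do not.

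The raw count of Cdh2 relative to Cdh1 was taken as a ratio within each library, a measure chosen after both values had been seen and therefore given with no test. It was 0.436, 0.452 and 0.421 in the 5-month mice and 0.938, 0.823 and 0.960 in the 22-month mice. The libraries did not overlap either, with 0.309 to 0.607 at 5 months and 0.659 to 1.33 at 22 months. The ratio of Cdh3 to Cdh1, by contrast, was 2.03 to 2.44 in the 5-month mice and 1.22 to 3.85 in the 22-month mice, so that the ages overlapped. The Cdh2 to Cdh1 ratio was higher in the eye with the higher rod score in 5 of 6 mice, and the part of the rod markers in its age difference was not tested. A ratio of raw counts within a library does not depend on library scaling, but it does not compare the levels of the 2 cadherins, whose transcripts differ in length.

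**Figure D3:**
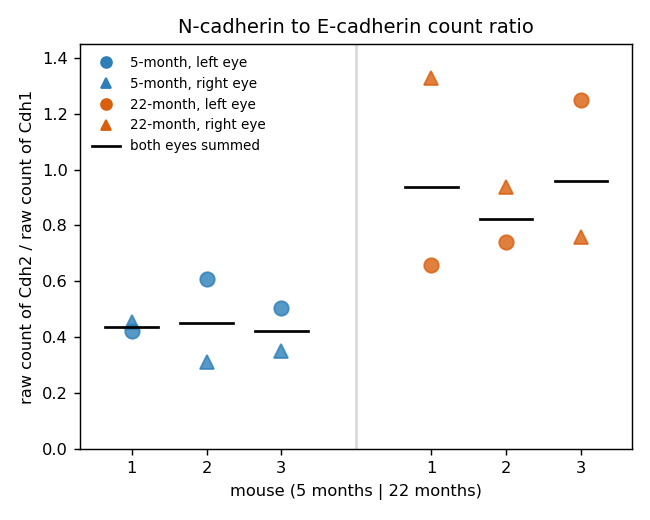
Raw count of Cdh2 divided by that of Cdh1 in the left eye (circles) and right eye (triangles) of each mouse, with the ratio of the summed eyes as a black bar. The 5-month mice span 0.421 to 0.452 and the 22-month mice 0.823 to 0.960, and in 5 of 6 mice the higher ratio is in the eye with the higher rod score.

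Among the claudins, Cldn2 encodes a channel-forming claudin that passes cations and water. The 5-month mice had 52.8, 66.8 and 88.2 CPM and the 22-month mice 23.7, 33.4 and 74.0 CPM. Mouse 3 was the highest of its age in both groups, and 22-month mouse 3 exceeded 5-month mice 1 and 2, so that the ages overlapped. The log2 fold change was -0.79 ± 0.22 (SE, edgeR adjusted p = 0.0830), with -1.07 in batch 1 (adjusted p = 0.0271, called) and -0.25 in batch 2. The lowest library, the right eye of 22-month mouse 1 at 12.3 CPM, was also the library with the highest rod score, 8.73.

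Cldn10 encodes a claudin whose splice forms, made from separate starts, form cation or anion channels. It was sparsely counted, with 18 to 69 raw counts per library. The 5-month mice had 5.4, 5.2 and 5.0 CPM and the 22-month mice 1.7, 2.9 and 5.0 CPM. The 5-month mice lay close together, 22-month mouse 3 was level with 5-month mouse 3 to within the rounding, and 22-month mice 1 and 2 lay below. The log2 fold change was -0.78 ± 0.32 (SE, edgeR adjusted p = 0.164), with -1.20 in batch 1 (adjusted p = 0.0409, called) and -0.00 in batch 2. The counts are per gene, so they do not say from which start the transcripts came.

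Cldn19 encodes a barrier-forming claudin known from the kidney and the human RPE, and human CLDN19 mutations cause magnesium loss with ocular defects. Its libraries at 5 months held 1.9 and 13.2 CPM (left and right eye of mouse 1), 1.8 and 0.3 CPM (mouse 2) and 1.3 and 2.0 CPM (mouse 3). At 22 months they held 10.0 and 2.7 CPM (mouse 1), 2.5 and 3.7 CPM (mouse 2) and 22.4 and 2.3 CPM (mouse 3). The values were carried by single eyes, with 128 of the raw counts of 5-month mouse 1 in its right eye and 22 in its left, and 259 and 26 in the left and right eye of 22-month mouse 3. The largest difference between the eyes of a mouse was 9.45-fold, and 1.51% of all genes tested had one at least as large. Summed per mouse the levels were 7.1, 1.0 and 1.7 CPM at 5 months and 6.4, 3.0 and 12.4 CPM at 22 months, which overlapped. The log2 fold change was 1.05 ± 0.87 (SE, edgeR adjusted p = 0.443), with 2.56 in left eyes alone (adjusted p = 0.127) and -0.70 in right eyes alone (adjusted p = 0.683).

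Occludin and ZO-1 belong to the tight junction of every epithelium. Ocln lay at 17.8, 19.8 and 18.4 CPM in the 5-month mice and, rounded to the unit, at 13, 13 and 20 CPM in the 22-month mice, so that 22-month mouse 3 was the highest of all 6. Its log2 fold change was -0.30 ± 0.16 (SE, edgeR adjusted p = 0.246), with -0.53 in batch 1 (adjusted p = 0.0304, called) and 0.14 in batch 2. Left eyes alone gave 0.05 (adjusted p = 0.888), right eyes alone -0.71 (adjusted p = 0.126) and the fit with the rod score as a covariate 0.00 (adjusted p = 0.996). Tjp1 was at 220.3, 203.0 and 143.1 CPM at 5 months and at 193.0, 202.9 and 135.0 CPM at 22 months, with mouse 3 lowest at both ages and wide overlap. Its log2 fold change was -0.09 ± 0.07 (SE, edgeR adjusted p = 0.396), with -0.10 in batch 1 and -0.08 in batch 2.

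Of the polarity genes, Pard6b encodes a scaffold that joins atypical protein kinase C and the small GTPase Cdc42 in the Par complex. Its level was 45.2, 41.0 and 49.8 CPM in the 5-month mice and 26.5, 30.4 and 36.7 CPM in the 22-month mice. The mice of the ages did not overlap, although single libraries did (34.6 to 53.8 against 23.3 to 41.3 CPM). The level fell from 45.3 ± 4.43 to 31.2 ± 5.18 CPM (SD, n = 3), a log2 fold change of -0.54 ± 0.09 (SE, edgeR adjusted p = 0.0312), with -0.60 in batch 1 and -0.44 in batch 2. The call was lost when any single mouse of batch 1 was left out, with adjusted p of 0.0773 and 0.0834 on omitting 5-month mouse 1 or 2, and of 0.114 and 0.109 on omitting 22-month mouse 1 or 2. Over the 6 omissions the log2 fold change stayed between -0.60 and -0.48. Left eyes alone gave -0.19 (adjusted p = 0.310) and right eyes alone -0.93 (adjusted p = 0.0537). Crb2, which encodes an apical transmembrane protein of the Crumbs complex, was at 51.5, 52.1 and 43.0 CPM at 5 months and at 56.2, 50.7 and 40.1 CPM at 22 months. The ages overlapped, with a log2 fold change of -0.00 ± 0.07 (SE, edgeR adjusted p = 0.978).

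By genome position (GRCm38, the assembly of mm10), Cdh3 (chromosome 8, 106510852 to 106556911) and Cdh1 (chromosome 8, 106603350 to 106670247) lie beside each other. Cldn2 is on chromosome X (139800808 to 139811386), Cldn10 on chromosome 14 (118787871 to 118874525), Cldn19 on chromosome 4 (119255441 to 119262438) and Ocln on chromosome 13 (100496504 to 100552718). Tjp1 is on chromosome 7 (65296165 to 65527850), Pard6b on chromosome 2 (168081004 to 168101203) and Crb2 also on chromosome 2 (37776225 to 37799103). The end of Crb2 overlaps Dennd1a, which was among the genes counted, so reads of the shared stretch may have been assigned to either gene. Ocln overlaps a small nucleolar RNA, and Cldn10 and Cldn19 overlap long non-coding RNAs, none of which was among the genes counted. The strand setting of the counting is not known from the sources used here.

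The 250 bases before the start of transcription are shown for Pard6b, the polarity gene that fell, which had the most motif matches of the genes searched. They are also shown for both starts of Cldn10, which the gene counts pool, and for Cldn2. The sequences are those of RefSeq (GRCm38.p6), from which 10 starts of 7 of the 10 genes were searched. No window of Cdh1, Cdh2 or Cdh3 was searched. Capitals mark matches, on either strand, to CACGTG and CATGTG, bound by basic helix-loop-helix factors such as MITF, to TAATCC, bound by OTX2 and CRX, and to CACCTG, bound by SNAI and ZEB repressors. All lie on the plus strand of the genome.
Pard6b, chr2:168080754-168081003: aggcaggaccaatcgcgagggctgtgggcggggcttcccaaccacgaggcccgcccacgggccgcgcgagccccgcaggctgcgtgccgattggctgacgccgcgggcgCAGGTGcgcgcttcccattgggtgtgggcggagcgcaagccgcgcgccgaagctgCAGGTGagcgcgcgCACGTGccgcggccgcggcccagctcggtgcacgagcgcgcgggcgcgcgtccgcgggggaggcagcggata
Cldn10, upstream start, chr14:118787621-118787870: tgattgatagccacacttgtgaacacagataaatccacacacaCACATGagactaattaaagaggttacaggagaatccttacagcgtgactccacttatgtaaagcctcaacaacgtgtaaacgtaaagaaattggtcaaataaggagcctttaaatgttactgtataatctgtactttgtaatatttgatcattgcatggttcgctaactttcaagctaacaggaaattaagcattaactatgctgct
Cldn10, downstream start, chr14:118854700-118854949: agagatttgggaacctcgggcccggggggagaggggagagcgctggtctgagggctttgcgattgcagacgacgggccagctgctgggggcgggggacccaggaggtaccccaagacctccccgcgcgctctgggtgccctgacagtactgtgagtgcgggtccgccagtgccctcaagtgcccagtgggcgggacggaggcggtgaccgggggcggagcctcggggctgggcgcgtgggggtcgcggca
Cldn2, chrX:139800558-139800807: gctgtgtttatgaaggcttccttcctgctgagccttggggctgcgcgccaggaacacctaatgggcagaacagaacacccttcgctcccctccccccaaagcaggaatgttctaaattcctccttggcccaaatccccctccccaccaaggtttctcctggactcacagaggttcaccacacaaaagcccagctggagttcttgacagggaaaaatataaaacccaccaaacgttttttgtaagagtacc
The Pard6b window held CACCTG at positions -141 and -86 (read as CAGGTG on the strand shown) and CACGTG at -72 from the start. The upstream Cldn10 window held CATGTG at -207 (read as CACATG), and neither the downstream Cldn10 window nor the Cldn2 window held any of the 4. Of the windows not shown, that of the downstream start of Ocln, a gene that was not called, held CACCTG at -213 and -68. The upstream Ocln window and those of Crb2, Tjp1 and Cldn19 held none of the 4. The downstream window had 72.4% G and C against 36.0% in the upstream one, 77.6% in Pard6b and 52.0% in Cldn2. Of 32851 promoter windows of this length, 17.2% held CACCTG, 6.02% CACGTG, 12.3% CATGTG and 6.25% TAATCC. A match is a description of letters and no binding was measured.

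The difference between the eyes of a mouse was set beside that of the rod score for each gene. The same sign counts were not made over all genes tested, so they are descriptions. In 22-month mouse 2 the left-right difference of the rod score was small, at -0.15. The left-right difference was opposite in sign to that of the rod score in 5 of 6 mice for Cdh1, Cdh3 and Pard6b, in 4 of 6 for Cldn2 and Ocln, in 3 of 6 for Cldn10 and Cldn19 and in 1 of 6 for Tjp1 and Crb2. Cdh2 took the sign of the rod score in all 6. With the rod score as a covariate in a fit of single eyes, in which the mouse was a random effect, the log2 fold change of Cdh1 was -0.58 (adjusted p = 0.0543), that of Pard6b -0.33 (adjusted p = 0.316) and that of Cdh3 -0.44 (adjusted p = 0.484). None of the 10 genes was called in that fit, where 2 had an unadjusted p under 0.05, both lower. Over all 14219 genes, 1088 were lower and 1141 higher at that cut. Omitting the 3 libraries whose rod scores were most extreme (the right eyes of 5-month mice 2 and 3 and of 22-month mouse 1) gave -0.60 for Cdh1 (edgeR adjusted p = 0.0256, called) and -0.39 for Pard6b (adjusted p = 0.0864).

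**Figure D4:**
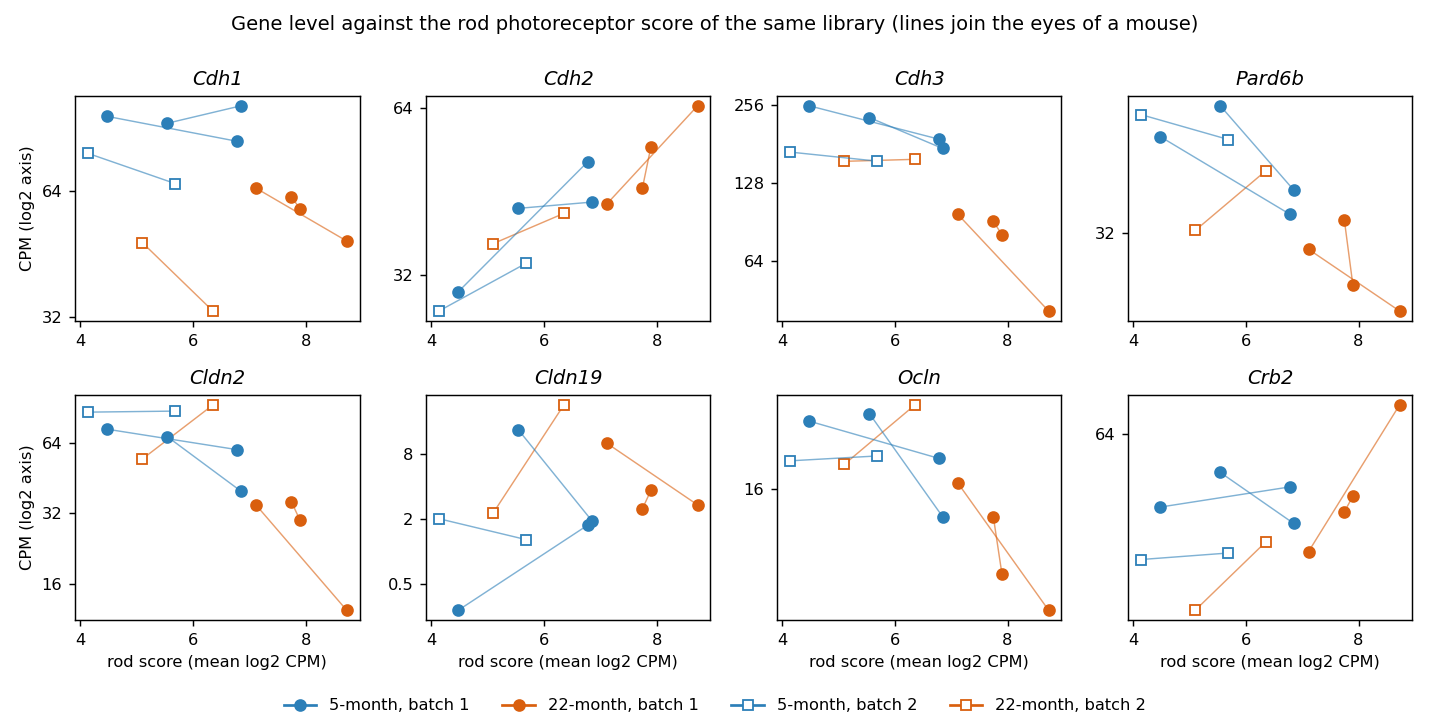
Level of 8 of the genes in CPM (log2 axis) against the rod score of the same library, the mean log2 CPM of 44 rod genes, with lines joining the eyes of a mouse, blue for 5 months, orange for 22 months and open squares for batch 2. The 22-month batch 1 libraries have the highest rod scores, 7.11 to 8.73, and Cdh2 goes up with the score within all 6 mice.

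The deposited batch-corrected counts moved some of these genes within a mouse. In 5-month mouse 3 the raw counts of Cdh3 were 1921 in the left eye and 2089 in the right, and after correction 1145 and 2941, so that the log2 ratio of left to right went from -0.12 to -1.36. For 0.682% of all genes tested was the change in that mouse at least as large, and the median change over all genes was 0.0242. Cldn10 in the same mouse moved by 0.53 and Cldn2 in 22-month mouse 3 by 0.58 on the log2 scale. The corrected table, which was the basis of the deposited normalized values, entered the test here through the filter on low counts and otherwise served as an alternative. With no such filter Cdh1 and Pard6b were called and Cdh2 was not (log2 fold change 0.27, adjusted p = 0.0645). With DESeq2 on the corrected counts of single eyes the log2 fold change of Cdh3 was -0.77 (adjusted p = 0.00364), against -0.98 in the summed raw counts.

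**Figure D5:**
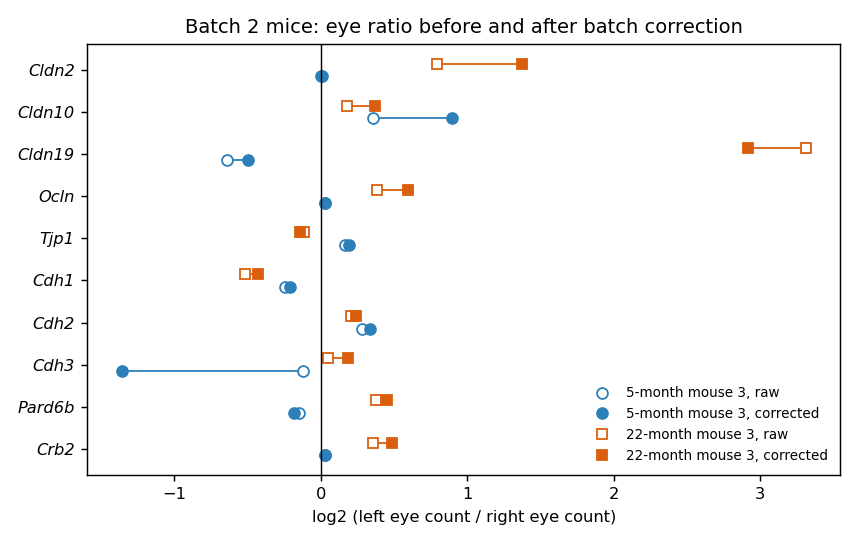
Log2 ratio of the left to the right eye count for the 10 genes in mouse 3 of each age, before (open) and after (filled) the batch correction of the deposited tables. Cdh3 of 5-month mouse 3 moved from -0.12 to -1.36, the farthest of the values shown.

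Across the 12 libraries, after the mean of each batch was subtracted, Cdh3 and Cldn2 ran most nearly together among the 10 genes (Pearson's r = 0.93 of log2 CPM), followed by Cldn10 with Cdh3 (0.91) and Cldn2 with Ocln (0.91), whereas Cdh1 and Cdh2 had r = -0.76. Pard6b had r between 0.75 and 0.86 with Cldn2, Cldn10, Ocln, Cdh1 and Cdh3. For Tjp1 the r of largest size with any of the others was -0.41 (Cldn19) and for Crb2 0.48 (Cdh2). These values are descriptions, since the libraries share mice, ages and depth. Among all genes, those most alike were Ctdspl, Myrf and Ppfibp2 to Cdh3 (r = 0.99 or more), Fads2, Jpt1 and Bcar1 to Cldn2, Tmem232, Zfp422 and Larp1b to Cldn10, and Kitl, Nrp2 and Ago2 to Cdh1. Those most alike to Pard6b were Hykk, Arhgap35 and Tuba1b, to Ocln Ahcyl2, Tmem175 and Slc20a2, and to Tjp1 Nat8f5, Vwa1 and Ivns1abp. Cdh2 was most alike to Adra2a, the gene with ID 665234 and Usp49, Crb2 to Lpcat1, Dnajc24 and Osbp2, and Cldn19 to Slc16a12, Cdon and Rab27b (r = 0.96).

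Of the wider claudin family 29 genes were matched, 7 of which had no count in any library and 13 lay below the filter. Of the 9 tested, 2 fell and none rose (4 lower and 1 higher by unadjusted p under 0.05), with a median log2 fold change of -0.19. Cldn1, a barrier-forming claudin, had the highest level per kilobase of the family, a mean of 70.0 CPM per kilobase against 17.0 for Cldn2, 1.62 for Cldn10 and 1.23 for Cldn19. Its level was 332.1, 392.6 and 558.5 CPM in the 5-month mice and 151.5, 220.7 and 376.4 CPM in the 22-month mice, with a log2 fold change of -0.83 ± 0.17 (SE, edgeR adjusted p = 0.0480). Cldn11, a claudin of myelin that also stood on the list of Schwann cell and myelin markers, of which 7 of 14 fell, went from 21.6 ± 4.52 to 5.82 ± 0.754 CPM (SD, n = 3; log2 fold change -1.90, adjusted p = 0.0203). The summed level of that myelin list ran from 899 to 1795 CPM at 5 months and from 555 to 1147 CPM at 22 months, and its part in the Cldn11 value was not tested.

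The share of genes called varied among the other junction lists, from none to 3 of 10 lower and 3 of 13 higher, against 2.26% and 5.41% of all genes. At an unadjusted p under 0.05, 2083 of all 14219 genes were lower and 2340 higher. Of 12 tight junction membrane proteins other than claudins, Ocln included, 1 fell, the adhesion receptor Cxadr (-0.43, adjusted p = 0.0409, and 0.0635 with the replicate block). None rose (unadjusted p under 0.05 for 2 lower and 0 higher). None of 20 tight junction scaffolds passed (unadjusted p under 0.05 for 3 lower and 1 higher), nor any of 35 junctional actin and myosin regulators (6 lower and 1 higher) or of 10 desmosome genes (0 lower and 3 higher). Of 16 classical cadherins 1 fell, Cdh1, and 2 rose, Cdh2 and the GPI-anchored Cdh13 (1.05, adjusted p = 0.0295). Of 25 catenins and other adherens junction proteins 1 fell, a gene not reported here, and 1 rose, Ctnna2, the neural alpha-catenin (0.86, adjusted p = 0.0265). By unadjusted p under 0.05 the list had 9 lower and 3 higher. Of 10 gap junction genes 3 fell, the connexins Gjb6 (-0.99, adjusted p = 0.0195), Gjb2 (-0.74, adjusted p = 0.0392) and, named after its value was seen and also on the myelin list, Gjc3 (-0.71, adjusted p = 0.0425), and 2 rose, Gjd2 (1.64, adjusted p = 0.0282), the connexin of retinal neurons, and Panx2 (1.49, adjusted p = 0.0226).

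Of the 15 Par genes Pard6b alone was called, and at an unadjusted p under 0.05 there were 2 lower and none higher. Of 13 Crumbs genes none fell (5 at an unadjusted p under 0.05) and 3 rose, which were Crb1, the Crumbs protein of photoreceptors and Mueller glia (1.76 ± 0.19, SE, adjusted p = 0.0195), Mpp4, a photoreceptor scaffold that also stood on the rod list (1.21, adjusted p = 0.0388), and, named after its value was seen, the scaffold Lin7a (1.63, adjusted p = 0.0409). Crb1 lay at 28.5, 20.8 and 5.4 CPM in the 5-month mice and at 103.6, 80.4 and 14.2 CPM in the 22-month mice, so that mouse 3 was lowest at both ages. Of 13 Scribble genes none fell (1 at an unadjusted p under 0.05) and 2 rose, Dlg4, a synaptic scaffold (0.82, adjusted p = 0.0427), and Llgl2 (0.44, adjusted p = 0.0427), which had adjusted p of 0.0529 and 0.0549 with the replicate block. With the rod score as a covariate Cldn11 (-2.23, adjusted p = 0.00542) and Gjb6 (-0.71, adjusted p = 0.0356) were called, and no other gene named with its value from these lists was, Gjc3 and Lin7a not being included. In that fit the values of Crb1, Panx2, Dlg4 and Llgl2 were 0.21, 0.28, 0.18 and 0.03, those of Ctnna2, Mpp4 and Gjd2 -0.81, -0.05 and -0.10, and those of Cldn1, Cxadr, Gjb2 and Cdh13 -0.49, -0.32, -0.51 and 0.84. With single mice left out in turn, the genes named from these lists beside the 10 kept their call in 2 to 4 of 6 omissions each (Cldn11, Crb1 and Gjb6 in 4, Cdh13, Ctnna2 and Panx2 in 3, the others in 2), again without Gjc3 and Lin7a.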

How the data were processed

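RPE cells were freed from mouse eyecups with enzymes after the retina had been removed, and total RNA depleted of ribosomal RNA was sequenced in pairs of reads. Per the labels and the study's methods, the authors used FastQC, Trimmomatic, HISAT2 (mm10) and featureCounts. Their versions, and whether counting used strand, were not given in the sources used here. Deposited by the authors were raw counts per gene, batch-corrected values from ComBat-seq, treated here as estimated counts, and normalized values, a signal per gene made by dividing the latter by DESeq2 size factors. Gene IDs were given symbols from RefSeq (25275 of 27179) and GENCODE (18 more), and 1886 kept their ID.

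Raw counts of the eyes of a mouse were summed and tested with edgeR 4.0.16 (R 4.3.3), TMM scaling and a batch term, over 14219 genes with a mean normalized count of at least 20. A gene was called when its p, adjusted by Benjamini-Hochberg, was under 0.05 and its log2 fold change beyond 0.25 in size. The standard error was the size of the fold change divided by the square root of F. Per-kilobase levels used the exon union of GENCODE M21. Fits of single eyes used limma 3.58.1 (voom) and DESeq2 1.42.0. Scripts were tested on simulated counts. Mice of equal number in the 2 ages deviated together (r = 0.769, 0.608 and 0.848), so a fit with the number as a replicate block was also made. The labels do not say that numbers pair mice. Mice of unequal number within batch 1 also deviated together (0.612 and 0.523). The 10 genes and all lists were chosen with earlier results of these data known. Named genes were all 10, up to 4 called genes of each pathway list (at most 2 per direction, by adjusted p) and the 3 most correlated genes of each, except 1 gene that is not reported here. With 3 mice per age and 3 residual degrees of freedom, p-values set the age difference against the spread between mice of like age and batch. In edgeR the estimate of that spread also draws on the other genes tested. Depth of 9171131 to 13217909 counts per library limits the sparsely counted Cldn10 and Cldn19.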

Additional observations from a re-analysis of the deposited data

Results flagged for a closer look

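Cldn19 in the right eye of 5-month mouse 1 stood apart from the other 5-month libraries at 13.2 CPM, with a gap to the nearest of them that was 0.867 of the whole range of the 6 libraries, above the critical value of Dixon's test. Each of the 10 genes was examined in the 6 libraries of each age, 20 groups in all, and chance flags about 1 in 20. The next highest 5-month library held 2.0 CPM, and the left eye of the same mouse 1.9 CPM.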

How the results depend on the processing

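Over all genes the number called lower and higher was 321 and 769. It was 863 and 1502 with DESeq2 on mouse sums, 0 and 2 with no batch term (409 and 607 at an unadjusted p under 0.05), 67 and 111 in left eyes, 3 and 9 in right eyes, and, without single mice, 0 to 1266 and 1 to 1729. With each eye as a sample it was 1263 and 1695 (edgeR), 1183 and 1572 (voom, mouse as a random effect), 1374 and 1949 (DESeq2, batch-corrected counts), 1450 and 1771 (limma-trend, normalized values) and 71 and 139 (rod score as a covariate). Leaving out the 3 libraries whose rod scores were most extreme, it was 226 and 439.

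Of the 10 junction and polarity genes, 2 were called lower and 1 higher. The counts were 4 and 1 with DESeq2 on mouse sums, 4 and 0 for eyes in edgeR, 3 and 0 in voom, 4 and 1 in DESeq2 on batch-corrected counts, 4 and 0 in limma-trend, 1 and 0 without the 3 libraries, 2 and 0 with no low-count filter, and 0 to 6 and 0 to 1 without single mice. None was called with no batch term (edgeR unadjusted p under 0.05 for 3 lower and 0 higher), in left eyes (4 and 1), in right eyes (5 and 1) or with the rod score as a covariate (2 and 0). Over all genes the counts at that cut were 409 and 607 with no batch term and 1244 and 1422 in left eyes. They were 2010 and 2335 in right eyes and 1088 and 1141 with the rod score. The causes were not tested.

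With the mouse number as a replicate block in place of the batch term, 183 genes were lower and 644 higher, and 2 and 0 of the 10 (Cdh2 adjusted p = 0.0605, Pard6b 0.0483). Cxadr, Llgl2 and Dlg4 lost their call as well, and no other call of a gene with values in the text changed, Gjc3 and Lin7a not being included.

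Directions turned for Cldn19 (right eyes -0.70), Ocln (left eyes 0.053, rod covariate 0.0026), Tjp1 (right eyes 0.058), Cdh2 (rod covariate -0.037), and Crb2 (no batch term 0.0038, right eyes 0.048, eyes in edgeR 0.0061, and -0.063 to 0.045 without single mice). They also turned for Ctnna2 (left eyes -0.53, rod covariate -0.81, without the 3 libraries -0.015), Mpp4 (rod covariate -0.051) and Gjd2 (-0.10). Cdh1 stayed between -0.82 and -0.58 over 20 alternatives.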

Other observations

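Cldn3 and Cldn4, claudins of many simple epithelia, had at most 9 and 30 raw counts in any library (57 and 65 in all 12), below the filter. Cldn5, the claudin of endothelium, was at 48.9 and 49.0 CPM at 5 and 22 months, with a log2 fold change of -0.02 (edgeR adjusted p = 0.956), and Cdh5, the cadherin of endothelium, at 94.9 and 81.2 CPM (log2 fold change -0.22, adjusted p = 0.149). Of 20 endothelial markers none was called (by unadjusted p under 0.05, 4 lower and 1 higher).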
